A study of Drosophila melanogaster with 4 samples.

Results

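The genes described here build and pull apart the mitotic chromosome: 48 *Drosophila melanogaster* genes of the kinetochore, the spindle checkpoint, the mitotic kinases, the spindle, the central spindle and contractile ring, cohesin and condensin. They were taken as a hand-written list of symbols, and all 48 were found among the 17023 FlyBase identifiers for which counts were deposited. Bulk RNA-seq of whole ovaries was analysed from 4 libraries, 2 of each genotype. The first genotype, >*bam* RNAi, carries UAS-Dicer2 and NosGAL4, a germline driver, together with a hairpin that targets *bag of marbles* (*bam*). The second, >*bam* RNAi; *aramis* RNAi, carries the same driver, Dicer2 and *bam* RNAi construct together with RNAi against *aramis* (current symbol *ais*), so that both genotypes lack Bam-driven differentiation and no library with intact *bam* was analysed here. Ovaries were taken from yeast-fed females 1 to 3 days post-eclosion. NosGAL4 acts in germ cells, so the somatic cells of these ovaries carry the constructs without the driver's activity. Labels do not say how many females were pooled or whether replicates are separate crosses, so p-values measure the spread between these samples, which may be technical.

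When a cell divides, cohesin rings hold the sister chromatids together, condensin compacts them, and the kinetochore assembled on the centromeric histone binds spindle microtubules. The spindle checkpoint delays anaphase until each kinetochore is attached, after which the anaphase-promoting complex marks securin for destruction and separase cuts cohesin. The central spindle and the actomyosin ring then cleave the cell. In the female germline these divisions differ from the textbook case, because a cystoblast divides with incomplete cytokinesis to form a cyst, and its sisters stay joined by ring canals. In >*bam* RNAi ovaries the germ cells do not make that transition and accumulate as cystoblast-like cells that divide as single cells, beside dividing somatic cells of the germarium.

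Total counts ranged from 11882367 to 13348602 per library, and 3 counts, taken as the floor, equalled 0.225 to 0.252 CPM (counts scaled by the library total); it covers counting error only, since PCR copies were not separated. For *ais*, counts were 454 and 507 in the first genotype and 149 and 161 in the second (log2 fold change -1.37, standard error 0.113, adjusted p = 0.000333 by edgeR), and for *bam* they were 35 and 25 against 16 and 17 (-0.61, standard error 0.416, adjusted p = 0.262). Markers of cell types differed between the genotypes. By edgeR's test, 25.0% of all genes tested were lower with *aramis* RNAi and 25.4% higher. Of 14 germline markers 13 were lower with *aramis* RNAi, with a median log2 fold change of -1.49, the exception was *tud* at 0.47, and none of the 14 was at 0 in any library. Of 16 somatic ovary markers 8 were higher and 2 lower, with a median of 0.51, and 4 of 4 hemocyte markers were higher, with a median of 1.55. Among the somatic ovary markers, *tj* was called lower, at 348 and 400 CPM against 170 and 140 with *aramis* RNAi. *upd1* had 80 and 44 counts against 15 and 13. The 16 include the actin gene *Act57B*, at 8663 and 7293 CPM against 10931 and 15022 with *aramis* RNAi. It moved like the muscle sheath marker *Mhc*, at 5794 and 4975 CPM against 7813 and 9980. Of 5 fat body markers 1 was higher (*Lsp2*, at 2.24) and 2 were lower, with a median of -0.46. Replicate 2 of >*bam* RNAi stood apart in the yolk protein genes among them: the 2 called lower, *Yp1* and *Yp2*, had 706 and 1377 CPM after edgeR scaling in replicate 1, 2407 and 4829 in replicate 2, and between 315 and 1102 with *aramis* RNAi. Fewer cells of a type and less RNA per cell cannot be told apart in these bulk libraries, and the part of these shifts in the results below was not tested.

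All 48 genes were detected well above the floor in each library. Levels were compared between genes as TPM, which divides counts by exon length before scaling to the library. In >*bam* RNAi the means over the 2 libraries ran from 13.6 ± 2.16 TPM for *cid* to 189 ± 1.64 TPM for *polo* (SD, n = 2), with a median of 74.0 TPM, against a median of 2.45 TPM over 16647 genes. Of the 48 genes, 39 lay above the 75th percentile of those genes, and the lowest, *cid*, was at the 60.4th. *polo* encodes the Polo kinase, which acts from centrosome maturation to cytokinesis, and *cid* the centromeric histone H3 variant. The next highest means were 175 TPM for *tacc* and 174 TPM for *vtd*, and their replicate values of 176 and 173 TPM and of 173 and 176 TPM overlapped, so that these neighbours did not differ beyond their spread. *pav* followed at 169 ± 9.88 TPM and *Bub3* at 161 ± 9.49 TPM. By role the kinetochore and centromere genes had the lowest median, 42.4 TPM, with the highest of them, *Cenp-C*, at 55.1 TPM. Medians were 66.3 TPM for the checkpoint genes, 73.7 TPM for condensin, 90.1 TPM for the mitotic kinases and passenger subunits, 101 TPM for cohesin and separase, 104 TPM for the spindle motors and associated proteins, and 106 TPM for the cytokinesis genes.

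**Figure D1:**
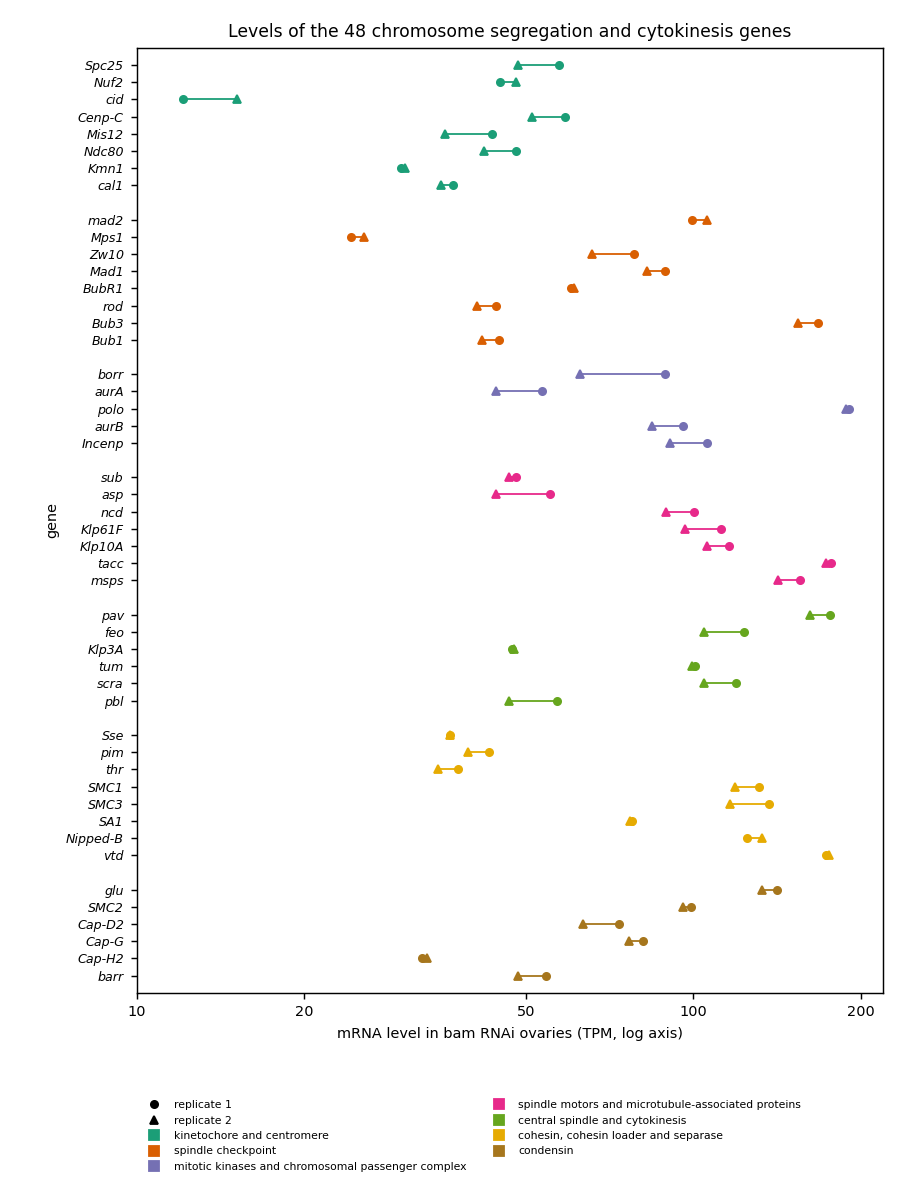
mRNA levels of the 48 genes in >*bam* RNAi ovaries in TPM on a log axis, with a circle for replicate 1 and a triangle for replicate 2 joined by a line, coloured by role and ordered within each role by the change between genotypes. Levels run from 13.6 TPM for *cid* to 189 TPM for *polo* (means), and the kinetochore genes lie to the left of most others.

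With *aramis* RNAi, the mRNAs of most of these genes were lower under the main scaling, and none was called higher. Counts were scaled with edgeR's trimmed mean of M-values (TMM), and per-library values below are CPM on that scale (normalised CPM). In edgeR's quasi-likelihood test, adjusted over 9115 genes, 37 of the 48 were lower at an adjusted p under 0.05, or 77.1%, against 25.0% of all genes tested. None was higher, against 25.4%. All 48 had passed the filter on low counts. The falls were moderate. The median log2 fold change of the 48 was -0.62, a 1.53-fold lower level, against -0.02 over all genes tested, and values ran from -1.29 for *Spc25* to 0.19 for *pbl*. In 44 of the 48 both >*bam* RNAi; *aramis* RNAi libraries lay below both >*bam* RNAi libraries, or 91.7%, against 40.0% of all genes. The fall exceeded 2-fold in 6 genes, *Spc25*, *Sse*, *pav*, *sub*, *feo* and *borr*, or 12.5%, against 6.71% of all genes. None of the 48 passed the threshold of over 4-fold used for bulk RNA-seq in the study, in edgeR or in DESeq2, against 3.36% of all genes in edgeR. An unadjusted p under 0.05 was found for 40 of the 48 in edgeR and 35 in DESeq2. The share of all genes at an unadjusted p was not computed, but 4590 of the 9115 were under 0.05 even after adjustment in edgeR.

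These counts depend on what the libraries are scaled to. Scaled to library totals, an alternative chosen after the data were seen, 45 of the 48 were lower against 36.7% of all genes, and the median of all genes moved by -0.19. Scaled to equal germline markers, the values of all 48 were positive and 43 were called higher, against 88.1% of all genes, with the median of all genes moved by 1.41. The log2 fold change of each of the 48 genes lay above that of the median germline marker, and under that scaling their share was near that of all genes. Without replicate 1 of >*bam* RNAi 19 of the 48 were called lower, against 6.69% of all genes tested in that fit, and without replicate 2 likewise 19, against 5.94%. Without replicate 1 of >*bam* RNAi; *aramis* RNAi 35 were, against 18.2%, and without replicate 2 of that genotype 32, against 18.0%. Directions in the paragraphs that follow are those under TMM scaling. Each fall of the 48 genes described there becomes a rise in value under germline marker scaling.

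**Figure D2:**
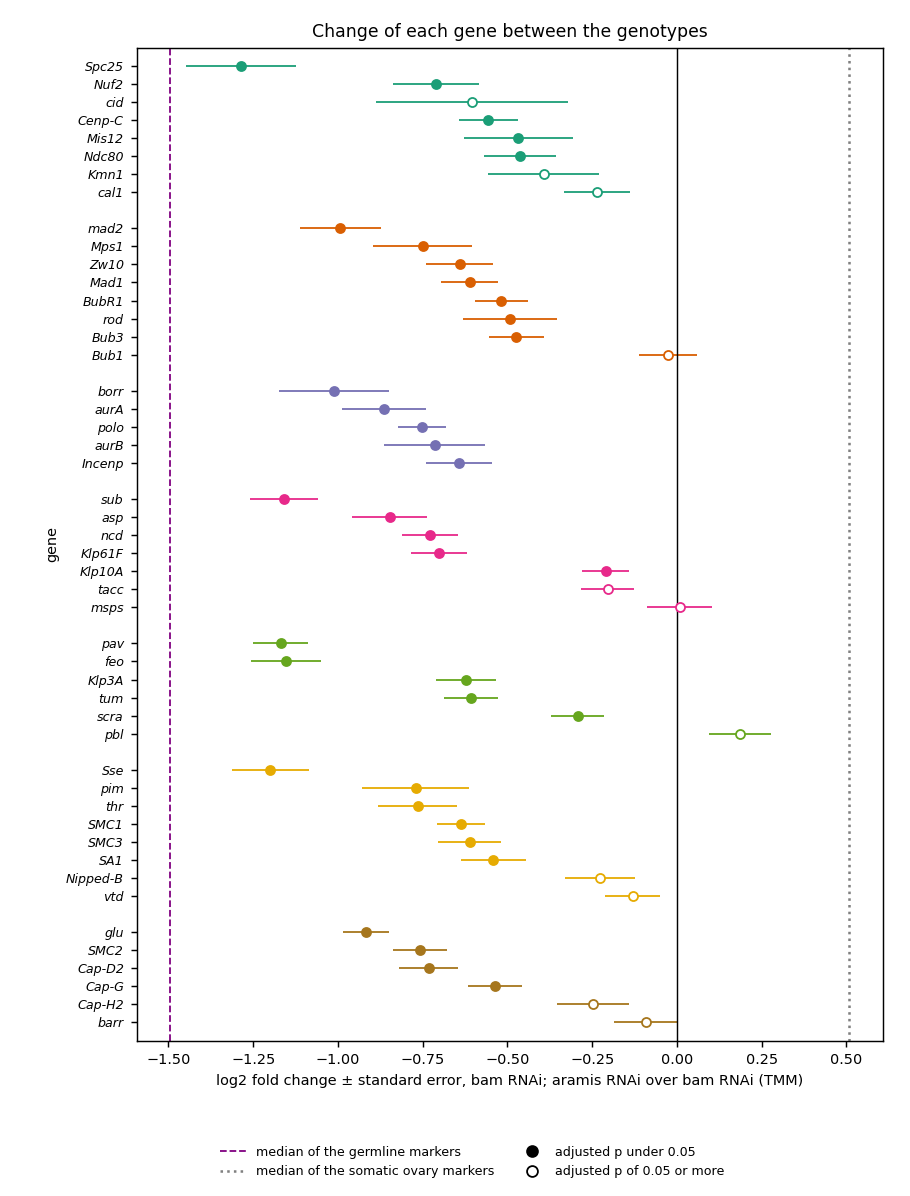
Log2 fold change of >*bam* RNAi; *aramis* RNAi over >*bam* RNAi for each of the 48 genes under TMM scaling, with the standard error as a bar, filled where the adjusted p is under 0.05; colours group the roles, the dashed line is the median of the germline markers at -1.49 and the dotted line that of the somatic ovary markers at 0.51. Of the 48 genes 37 are filled and to the left of 0, and all 48 lie to the right of the dashed line, so that all turn positive when libraries are scaled to the germline markers.

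Among the kinetochore and centromere genes, 5 of 8 were lower under TMM scaling and 3 did not pass the test, with a median of -0.51. *Spc25*, listed as FBgn0087021 and lying on the plus strand of arm 3R from 12961745 to 12963249 in dm6 coordinates, fell most of the 48. It encodes a subunit of the Ndc80 complex, which grips the spindle microtubule. It had 21.7 and 19.2 normalised CPM in replicates 1 and 2 of >*bam* RNAi and 7.58 and 9.16 with *aramis* RNAi. The genotypes did not overlap, and the level was 2.44-fold lower (log2 fold change -1.29, standard error 0.163, adjusted p = 0.00110). Its partners in that complex had smaller falls in value: *Nuf2* from 22.7 and 25.5 to 14.9 and 14.5 normalised CPM (-0.71, adjusted p = 0.00427), and *Ndc80* from 41.2 and 37.99 to 30.0 and 27.5 (-0.46, adjusted p = 0.0115). *Cenp-C*, which bridges the centromere and the outer kinetochore, fell by 0.56 on the log2 scale (adjusted p = 0.00253). *Mis12*, which joins that bridge to the Ndc80 complex, was at -0.47 with an adjusted p of 0.0491, and lost its call with DESeq2 (adjusted p = 0.232), with RLE normalization (0.0573), with no filter (0.0723) and with any library left out (0.0962 to 0.184). The histone *cid*, with 62 and 90 against 37 and 46 counts, had the least depth and a fitted change of -0.60 on the log2 scale (standard error 0.284, adjusted p = 0.118). Its loading factor *cal1* was at -0.24 (adjusted p = 0.0835) and *Kmn1*, a further outer kinetochore subunit, at -0.39 (adjusted p = 0.0856). Both had all *aramis* RNAi libraries below the others, as in 40.0% of all genes, without passing the test.

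Of the 8 checkpoint genes 7 were lower, with a median of -0.56. *mad2* encodes the inhibitor that checkpoint signalling turns on at unattached kinetochores. It lies on the minus strand of 3L from 5812135 to 5813093 (FBgn0035640) and had 31.8 and 35.5 normalised CPM in >*bam* RNAi against 16.4 and 17.4 (log2 fold change -0.99, standard error 0.118, adjusted p = 0.000905). *Mad1*, which carries Mad2 to the kinetochore, went from 84.8 and 82.9 to 53.8 and 55.8 (-0.61, adjusted p = 0.00142). The kinase gene *Mps1*, which starts the signal, was the checkpoint gene of lowest TPM, at 25.0, and fell by 0.75 on the log2 scale (adjusted p = 0.00585). *BubR1* and *Bub3*, subunits of the complex that holds back the anaphase-promoting complex, were at -0.52 and -0.47 (adjusted p = 0.00216 and 0.00361). *Zw10* and *rod*, both of the complex that brings dynein to kinetochores, were at -0.64 and -0.49 (adjusted p = 0.00227 and 0.0247). For *rod* the *aramis* RNAi replicates were uneven, at 90.1 and 66.6 normalised CPM against 112 and 109. Its log2 fold change was -0.28 without replicate 2 of that genotype. It was -0.48 without replicate 1 of >*bam* RNAi and -0.51 without replicate 2 of >*bam* RNAi. The call of *rod* was lost in each of these fits. *Bub1*, whose product is the kinase and scaffold on which the other Bub proteins assemble, stood apart in value from these 7. Its libraries overlapped, with 74.9 and 73.4 normalised CPM in >*bam* RNAi against 75.6 and 69.8 (-0.03, standard error 0.0858, adjusted p = 0.816).

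The 5 mitotic kinase and passenger complex genes were all lower, with a median of -0.75. In each, both *aramis* RNAi libraries lay below both others, as in 40.0% of all genes, which adds little for genes already called lower. *polo* went from 222 and 230.4 normalised CPM to 132 and 136 (-0.75, standard error 0.0708, adjusted p = 0.000449). *aurA*, the centrosomal Aurora kinase, went from 32.9 and 28.6 to 16.7 and 17.1 (-0.86, adjusted p = 0.00173). *aurB*, the Aurora kinase of the chromosomal passenger complex, went from 44.2 and 40.9 to 22.3 and 29.6 (-0.71, adjusted p = 0.00769). The kinases thus fell by similar amounts in value. *Incenp*, the scaffold of the passenger complex, was at -0.64 (adjusted p = 0.00213), and *borr*, the borealin subunit that targets it to centromeres, at -1.01 (standard error 0.162, adjusted p = 0.00274). *borr* lies on the minus strand of 2L from 9251472 to 9253118 (FBgn0032105), and its >*bam* RNAi replicates, at 45.1 and 33.4 normalised CPM, were the most uneven of the 48 genes in that genotype, against 20.1 and 18.8 with *aramis* RNAi.

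Of the 7 spindle genes 5 were lower, with a median of -0.70, and the falls of 4 motors and pole proteins were the larger ones in value. *sub*, a kinesin-6 best known from the female meiotic spindle (FBgn0003545, 2R minus strand, 17745500 to 17748078), went from 46.2 and 47.2 normalised CPM to 20.4 and 21.4 (log2 fold change -1.16, standard error 0.100, adjusted p = 0.000362). *asp*, an organiser of spindle poles, went from 136 and 115 to 73.9 and 65.8 (-0.85, adjusted p = 0.00122). *ncd*, the minus-end directed kinesin-14, and *Klp61F*, the kinesin-5 that pushes poles apart, were at -0.73 and -0.70 (adjusted p = 0.000772 and 0.000875). *Klp10A*, a kinesin-13 that depolymerises microtubules, was called lower at -0.21 with an adjusted p of 0.0434, and lost the call with DESeq2 (adjusted p = 0.145) and with any library left out (0.101 to 0.153). *tacc*, which anchors the microtubule polymerase *msps* at centrosomes, was at -0.20 (adjusted p = 0.0693). *msps* itself had 459.7 and 443 normalised CPM in the >*bam* RNAi libraries against 484 and 424. These values overlapped (0.01, standard error 0.0948, adjusted p = 0.952), and the sign of *msps* turned negative with library totals and when either replicate 2 of >*bam* RNAi or replicate 1 of >*bam* RNAi; *aramis* RNAi was left out.

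Cytokinesis genes spanned the widest interval of any role, from -1.17 to 0.19, with 5 of 6 lower. *pav*, the kinesin-6 of centralspindlin (FBgn0011692, 3L plus strand, 4242734 to 4246233), went from 220.4 and 214 normalised CPM to 102 and 91.4, a 2.25-fold fall (log2 fold change -1.17, standard error 0.0813, adjusted p = 0.000264). *feo*, the bundler of antiparallel central spindle microtubules (FBgn0030241, X minus strand, 10852446 to 10854869), went from 117 and 104 to 46.5 and 52.7 (-1.15, standard error 0.104, adjusted p = 0.000396). *tum*, the RacGAP that is the other subunit of centralspindlin, went from 92.3 and 96.3 to 62.6 and 61.1 (-0.61, adjusted p = 0.00129). *Klp3A*, a kinesin-4 of the central spindle, was at -0.62 (adjusted p = 0.00164). The genes that act at the cortex were closer to 0 in value. *scra*, the anillin that links the ring to the membrane, was at -0.29 (adjusted p = 0.0204), from 207 and 191 to 167 and 158. *pbl*, the RhoGEF that switches on Rho1 at the equator, had 128 and 111 in >*bam* RNAi against 139 and 133 (0.19, standard error 0.0909, adjusted p = 0.129), and its value was -0.0072 with library totals.

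**Figure D3:**
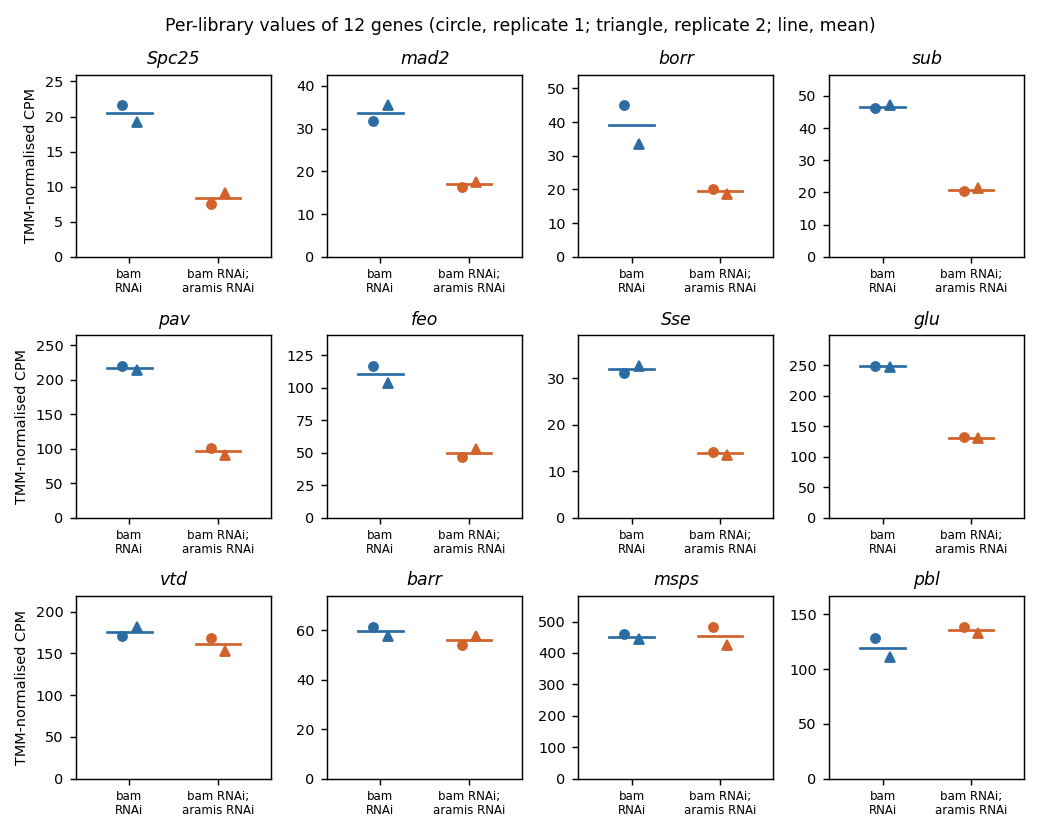
Normalised CPM (TMM scaling) of 12 genes in each library, in blue for >*bam* RNAi and orange for >*bam* RNAi; *aramis* RNAi, with a circle for replicate 1, a triangle for replicate 2 and a line for the mean of the 2; each axis starts at 0. *Spc25*, *mad2*, *borr*, *sub*, *pav*, *feo*, *Sse* and *glu* were called lower and have both orange points below both blue points. *vtd*, *barr*, *msps* and *pbl*, chosen after their values were seen, did not pass the test. Both orange points of *vtd* also lie below its blue points, a placing found in 40.0% of all genes tested. With libraries scaled to germline markers all 12 have positive values.

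For cohesin and separase 6 of 8 genes were lower, with a median of -0.62. *SMC1* and *SMC3*, the paired ATPases of the ring, moved alike: from 201 and 191 to 126 and 126 normalised CPM for *SMC1* (-0.64, adjusted p = 0.000708), and from 215 and 192 to 125 and 141 for *SMC3* (-0.61, adjusted p = 0.00222). *SA1*, the stromalin subunit, was at -0.54 (adjusted p = 0.00398). *vtd*, the Rad21 kleisin that closes the ring and that separase cuts, had 170.4 and 182 against 169 and 153 normalised CPM (-0.13, standard error 0.0818, adjusted p = 0.224). *Nipped-B*, which loads cohesin, was at -0.23 (adjusted p = 0.110). In flies separase is split over genes including *Sse*, the protease, and *thr*, its partner. *Sse* lies on the minus strand of 3L from 5659700 to 5662247 (FBgn0035627) and went from 31.1 and 32.6 to 14.2 and 13.6 normalised CPM, a 2.30-fold fall (-1.20, standard error 0.115, adjusted p = 0.000460). *thr* went from 67.4 and 65.5 to 42.8 and 35.4 (-0.76, adjusted p = 0.00220), and *pim*, the securin that inhibits both, from 16.4 and 15.8 to 8.64 and 10.2 (-0.77, adjusted p = 0.00713).

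Of the 6 condensin genes 4 were lower, with a median of -0.63. *glu*, the SMC4 ATPase (FBgn0015391, 2L minus strand, 16733617 to 16738388), went from 249 and 247 normalised CPM to 132 and 131, with the smallest standard error of the 48 genes (-0.92, standard error 0.0685, adjusted p = 0.000274). Its partner *SMC2* went from 142 and 145 to 81.0 and 89.0 (-0.76, adjusted p = 0.000600). Of the subunits of condensin I, *Cap-D2* and *Cap-G* were at -0.73 and -0.54 (adjusted p = 0.000909 and 0.00193), and *barr*, its kleisin, had 61.6 and 57.9 against 54.2 and 57.9 normalised CPM (-0.09, standard error 0.0934, adjusted p = 0.449). *Cap-H2*, the kleisin of condensin II, was at -0.25 (adjusted p = 0.0920).

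Because subunits of a complex differed in value, their TPM were divided within each library, for 16 pairs chosen after the values were seen. In 7 pairs both *aramis* RNAi libraries lay below both >*bam* RNAi libraries, in 3 they lay above, and in 6 the genotypes overlapped. The share among other gene pairs was not computed, so these counts show nothing particular to these complexes. The ratios come from the same libraries as the fold changes and are no independent support for them. With 2 libraries per genotype an exact two-sided permutation test cannot go below p = 0.333, so the ratios are given as values. The ratio of *SMC1* to *SMC3* stayed near 1 throughout, at 0.958 and 1.02 in >*bam* RNAi against 1.03 and 0.918. That of *vtd* to *SMC3* was 1.26 and 1.51 against 2.14 and 1.73, higher in both *aramis* RNAi libraries. The ratio of *barr* to *SMC2* was 0.549 and 0.506 against 0.849 and 0.825. The third pair that was higher was *Cap-G* to *SMC2*, at 0.821 and 0.801 against 1.04 and 0.859, while *Cap-H2* to *barr*, the kleisins of the condensins, overlapped at 0.601 and 0.686 against 0.633 and 0.524. The ratio of *pav* to *tum* was 1.75 and 1.63 against 1.19 and 1.10. That of *Spc25* to *Ndc80* was 1.19 and 1.15 against 0.575 and 0.758, and that of *Sse* to *thr* 0.969 and 1.05 against 0.697 and 0.806. Ratios within a library do not depend on how the libraries are scaled.

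**Figure D4:**
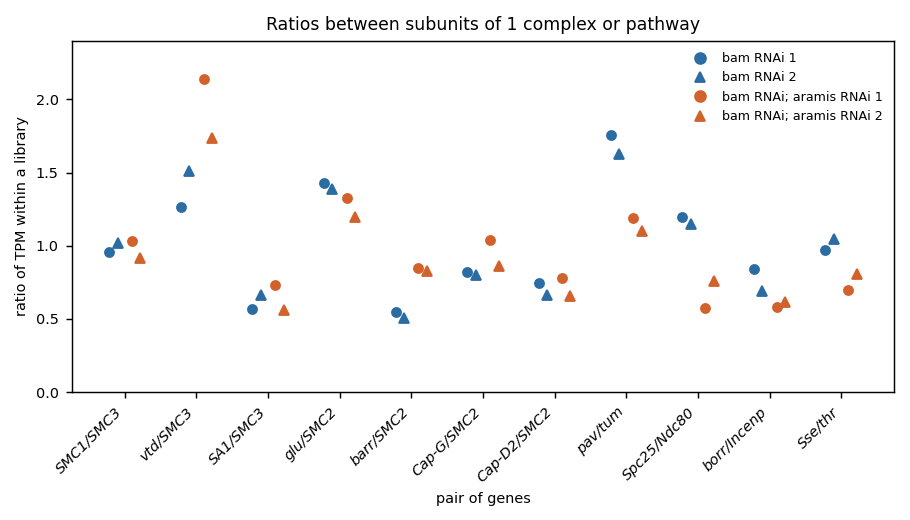
Ratio of the TPM of gene pairs within each library, in blue for >*bam* RNAi and orange for >*bam* RNAi; *aramis* RNAi, with circles for replicate 1 and triangles for replicate 2. The *SMC1*/*SMC3* ratio lies between 0.918 and 1.03 in all 4 libraries, while both orange points lie above the blue ones for *vtd*/*SMC3* and *barr*/*SMC2* and below them for *pav*/*tum* and *Spc25*/*Ndc80*.

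Other genes of the same pathways were listed beside these 48, and of 75 tested 45 were lower and 10 higher, with a median of -0.47. Of all genes tested, 25.0% were lower and 25.4% higher, and the list counts below stand against these shares. Of the 10 higher genes, 8 were contractile ring and septin genes. *lmgA*, the identifier matched to the listed *lmg*, and *Klp59C* had no counts in any library, and *dmt*, *solo* and *zip* were not analysed here. Whether reads of *lmg* were counted under another identifier was not examined. Spindle assembly genes outside the 48 followed most closely in count, with 18 of 22 lower, 0 higher and 4 not called, by edgeR's test, and a median of -0.63. For the anaphase-promoting complex, its activators and its E2 enzyme 9 of 13 were lower. Its mitotic activator *fzy* went from 105 and 93.2 to 50.0 and 46.6 normalised CPM (-1.04, adjusted p = 0.000457), whereas *fzr*, the activator of late mitosis and of endocycles, went from 63.5 and 58.0 to 71.9 and 76.1 (0.29, adjusted p = 0.0396). These activators, of opposite direction under TMM scaling, both have positive values when libraries are scaled to germline markers. Other fallers of over 2-fold were *ord* and *sunn*, which hold meiotic sister chromatids together, at -1.54 and -1.61 (adjusted p = 0.000248 and 0.000264), the augmin subunits *msd1* and *msd5* at -1.17 and -1.08, and *nod*, a chromosome-associated kinesin-like protein of female meiosis, at -1.02. *ord* had 77.5 and 71.8 against 26.4 and 24.9 normalised CPM, and *sunn* 62.2 and 65.7 against 22.4 and 19.6. *msd1* had 11.1 and 10.1 against 4.67 and 4.76, *msd5* 13.9 and 14.0 against 7.67 and 5.55, and *nod* 16.0 and 13.4 against 6.52 and 8.01. In all 5, named for the size of their fall, both *aramis* RNAi libraries lay below both others, as in 40.0% of all genes. *ord* and *sunn* remained negative in value under germline marker scaling, at -0.13 and -0.19 (adjusted p = 0.318 and 0.147).

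The contractile ring and septin genes went the other way under TMM scaling, with 8 of 13 higher, 3 lower and a median of 0.30. Of all genes tested, 25.4% were higher and 25.0% lower, so the share of this list that fell was near that of all genes. *Rho1*, the GTPase that *pbl* activates, went from 853 and 914 to 1401 and 1516 normalised CPM (0.72, standard error 0.107, adjusted p = 0.00195). The formin *dia* and the myosin light chain *sqh*, which build the ring downstream of Rho1, were at 0.58 and 0.51 (adjusted p = 0.000951 and 0.00443). Those that fell included *sti*, the citron kinase of the midbody, at -0.63 (adjusted p = 0.00142) and *Septin5* at -0.90 (adjusted p = 0.00157). *Rho1*, *dia* and *sqh* also serve the cell cortex and muscle outside division. Beside them, 3 of 4 tested muscle sheath markers were higher, with a median of 0.97, and their summed level went from 9188 and 8118 normalised CPM to 14417 and 19390, and their part in the rise was not tested.

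**Figure D5:**
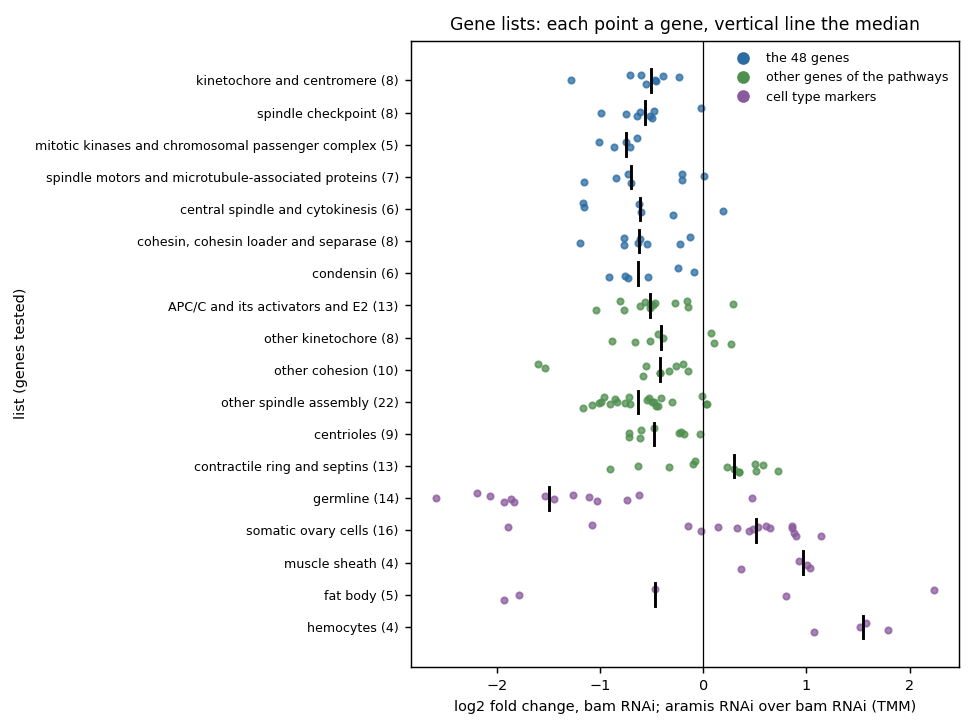
Log2 fold changes under TMM scaling for the 7 roles of the 48 genes (blue), the other genes of the pathways (green) and cell type markers (purple), each point a gene and each vertical line the median of its list, with the number of genes tested in brackets. Medians of the blue lists lie between -0.75 and -0.51, those of contractile ring and septin genes at 0.30 and of germline markers at -1.49; scaled to germline markers the median of all genes moves by 1.41 and the blue and green medians are positive.

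Summed over the 48 genes, the level was 5668 and 5546 normalised CPM in >*bam* RNAi against 4173 and 3958, a ratio of means of 0.725. By role the ratio ran from 0.595 for the mitotic kinases and passenger subunits to 0.826 for the spindle genes, whose sum *msps* and *tacc* dominate. The sum of the 14 germline markers had a ratio of 0.646, and of 0.412 without *tud*, their most abundant member and the only one called higher. Between replicates of a genotype the 48 genes differed by a median of 0.0959 on the log2 scale in >*bam* RNAi and 0.105 in >*bam* RNAi; *aramis* RNAi, with the largest differences 0.432 for *borr* and 0.437 for *rod*.

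The 48 genes are spread over the genome, with 7 on X, 8 each on 2L and 3L, 11 on 2R and 14 on 3R, and each arm had between 6 and 10 genes called lower. Exons of 19 of them overlap an annotated gene on the other strand, and none overlaps a gene on its own strand. Whether the counting used strand, and how it treated reads in such overlaps, is not given in the sources used here. Counts of those 19 could therefore include reads of their antisense partner or lose reads in the shared bases. Of these 19, 14 were lower, with a median of -0.70, and of the other 29, 23 were, with a median of -0.61. Among the genes of the largest falls, *Spc25*, *borr*, *pav*, *feo* and *Sse* have no such overlap, while *sub* shares 506 bases of its 2460 with *Ir54a* and *mad2* 94 of 818 with *kri*.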

How the data were processed

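Whole-ovary poly(A) RNA-seq was measured in 4 libraries, grouped by the genotype label. The authors deposited raw counts per gene, not normalized, for 17023 FlyBase identifiers; the submitters' processing notes name HISAT2 2.1.0, featureCounts 1.4.6, DESeq2 1.24.0 and build dm6, and the annotation release, strand setting and treatment of multiply mapped reads are not given in the sources used here. Names, coordinates and exon unions came from Ensembl release 115 (BDGP6, dm6 coordinates). Of the identifiers 376 did not match; they held 6.14% to 6.32% of counts, stayed in the tests and were left out of TPM. edgeR 4.0.16 (R 4.3.3) was fitted over all genes with TMM, its default filter (minimum count 10), quasi-likelihood tests and Benjamini-Hochberg adjustment; standard errors are those implied by the F statistic. Results were recomputed with DESeq2 1.42.0, without the filter, with RLE normalization, a replicate block, leaving out each library, scaling to the geometric mean of 14 germline markers, longest transcript as length, and, added later, library totals. The functions were tested on simulated data. The 48 genes, the lists and the germline scaling were chosen with earlier results of these data known. Values in every library are given for genes changed over 2-fold, for the largest fall of each role and, chosen after their values were seen, for others. The chi-square of replicate pairs over genes was 21.6 and 12.1 times its degrees of freedom, so no library was a copy of another; this does not show whether replicates are biological. A planned search for promoter motifs was not run, as no sequence was used here. Of the listed markers, *vas* and *wupA* were not analysed here. Tables were handled with pandas 2.3.3 and figures drawn with matplotlib 3.10.9.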

Additional observations from a re-analysis of the deposited data

How the results depend on the processing

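Of the 37 falls, 35 were also called with DESeq2, RLE normalization, no filter on low counts and the replicate number as a block, and *Mis12* and *Klp10A* were not. Numbers of all genes called were 4590 (2312 higher, 2278 lower) against 3792, 4574, 4252 and 4430 in that order. Those called lower in these alternatives were 1694, 2177, 2051 and 2173 genes. The genes fitted were 13308 with DESeq2 and with no filter, and 9115 with RLE normalization, with the block and in the main fit. Replicate numbers are shared between the genotypes, but the deviations of same-numbered libraries had a correlation of 0.0319 across genes and the labels name no shared litter or day, so the block is given only here. With a library left out, all genes called ran from 1243 to 3715 and the 48 genes called lower from 19 to 35; such fits rest on 1 residual degree of freedom and assume that the lone library varies like the others. In these fits *Bub1* ran from -0.0747 to 0.0388 and *msps* from -0.0792 to 0.110. With library totals, 5030 genes were called (1684 higher, 3346 lower), *msps* was at -0.18 and *pbl* at -0.0072. The longest transcript as length moved 19 of 48 TPM values by more than the replicate SD. Depth limits *cid*, with 37 to 90 counts.

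Scaled to germline markers, 8183 genes were called (8034 higher, 149 lower), 43 of the 48 higher and 0 lower by edgeR (44 at an unadjusted p under 0.05, all positive). The scaling moves each log2 fold change by about the same amount, so smaller falls change sign by construction. Values among the kinetochore and centromere genes were 0.81 for *cid*, 1.18 for *cal1*, 0.85 for *Cenp-C*, 0.95 for *Ndc80*, 0.70 for *Nuf2*, 0.13 for *Spc25*, 0.94 for *Mis12* and 1.02 for *Kmn1*. Values among the spindle checkpoint genes were 0.89 for *BubR1*, 1.38 for *Bub1*, 0.94 for *Bub3*, 0.42 for *mad2*, 0.80 for *Mad1*, 0.66 for *Mps1*, 0.77 for *Zw10* and 0.92 for *rod*. Values among kinases and passenger subunits were 0.66 for *polo*, 0.55 for *aurA*, 0.70 for *aurB*, 0.40 for *borr* and 0.77 for *Incenp*. Values among the spindle motors and microtubule-associated proteins were 0.71 for *Klp61F*, 1.20 for *Klp10A*, 0.68 for *ncd*, 0.25 for *sub*, 0.56 for *asp* and 1.21 for *tacc*. Values among the central spindle and cytokinesis genes were 0.24 for *pav*, 0.80 for *tum*, 0.26 for *feo*, 0.79 for *Klp3A* and 1.12 for *scra*. Values among the cohesin, cohesin loader and separase genes were 1.28 for *vtd*, 0.78 for *SMC1*, 0.80 for *SMC3*, 0.87 for *SA1*, 1.18 for *Nipped-B*, 0.65 for *thr*, 0.64 for *pim* and 0.21 for *Sse*. Values among the condensin genes were 0.66 for *SMC2*, 0.49 for *glu*, 1.32 for *barr*, 0.87 for *Cap-G*, 0.68 for *Cap-D2* and 1.17 for *Cap-H2*.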
